A study of Mus musculus with 10 samples.

Results

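The tumour necrosis factor (TNF) receptor pathway was followed in mouse testis through 10 genes, out of 30719 in the count table. They encode the adaptor proteins TRAF1 to TRAF6 (Traf1, Traf2, Traf3, Traf4, Traf5, Traf6), the TNF receptors TNFR1 and TNFR2 (Tnfrsf1a, Tnfrsf1b), and the p50 precursor and the p65 subunit of the transcription factor NF-kB (Nfkb1, Rela). The genes were picked by name and were selected on earlier measured values of the genotype comparison, so their values and calls in that comparison are given as a description and support nothing. Whole testes of mice at postnatal day 10 were taken from 5 wild-type mice and 5 FXR-/- mice, each giving 1 RNA library, and all were run on 1 flowcell. FXR-/- mice lack FXRalpha, the farnesoid X receptor, a bile acid-activated nuclear receptor encoded by Nr1h4. Both genotypes were on a mixed background of 129sv and C57Bl6 strains, and the labels name neither the deleted part of the gene nor any treatment. Libraries are named by the numbers in the labels, which are 3, 4, 5, 6 and 9 for wild type and 8, 9, 10, 11 and 12 for FXR-/-. An equal number does not pair libraries.

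TNF binds receptors on the cell surface, and the receptors recruit TRAF proteins, several of which act as ubiquitin ligases that build a scaffold for kinases. The kinases release NF-kB dimers such as p50 with p65 from their inhibitors, and the dimers enter the nucleus and switch on survival and inflammatory genes. In the testis, TNF is known as a product of germ cells and macrophages that acts on Sertoli cells and Leydig cells. Traf1 is itself a well-known NF-kB target and its protein, which lacks the RING domain of its relatives, works mainly together with TRAF2.

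The libraries held 32330029 to 39655170 counts. Levels are counts per 1000000 counts (CPM), with library totals scaled by the trimmed mean of M-values, and log2 fold changes are FXR-/- over wild type. Nr1h4 itself had 0.408 to 0.783 CPM in wild-type libraries and 0.236 to 0.334 CPM in FXR-/- libraries, lower in all FXR-/- libraries with 8 to 13 counts remaining in each (edgeR log2 fold change -0.84, SE 0.23, adjusted p = 0.0347). Of 18559 genes tested, 1146 were higher and 1430 were lower in FXR-/- at an edgeR adjusted p under 0.05, and the median log2 fold change of all tested genes was 0.01. All libraries carried the markers listed for testis cells, summing to 3012 to 3276 CPM in wild type and 2903 to 3200 CPM in FXR-/-. By edgeR, 3 of these 14 genes fell (Sox9, Wt1 and Dhh, markers of supporting cells) and 0 rose. The other 11 were not called by edgeR, among them Amh and Gata4. DESeq2 called 6 of the 14 and limma-voom called 3. Markers of duct epithelium (keratins and other genes of ducts) rose for 7 of 8 genes and summed to 35.2 to 52.0 CPM in wild type and 77.3 to 139.5 CPM in FXR-/-, without overlap. Those of fat cells rose for 8 of 12 tested genes by edgeR (3 by limma-voom, and 2 without overlap between the genotypes) and summed to 123.7 to 228.6 CPM in wild type and 174.7 to 1091 CPM in FXR-/-, with overlap. The tissue was bulk RNA, so fewer cells of a type and less RNA per cell cannot be told apart.

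The sequence just upstream of the start of 3 of the genes is shown, because Traf1 and Rela were lower in FXR-/- and Traf2, the usual partner of TRAF1, was not. The sequences are from the RefSeq promoter table on GRCm38.p6, which matched 9 of the 10 genes, all except Nfkb1. They are written 5' to 3' in the direction of transcription, with CpG dinucleotides in capitals, at chr2:34961773-34962022 (minus strand) for Traf1, chr2:25546941-25547190 (minus strand) for Traf2 and chr19:5637291-5637482 (plus strand) for Rela. The Rela sequence stops at 192 bases, where the annotated exons begin.
Traf1: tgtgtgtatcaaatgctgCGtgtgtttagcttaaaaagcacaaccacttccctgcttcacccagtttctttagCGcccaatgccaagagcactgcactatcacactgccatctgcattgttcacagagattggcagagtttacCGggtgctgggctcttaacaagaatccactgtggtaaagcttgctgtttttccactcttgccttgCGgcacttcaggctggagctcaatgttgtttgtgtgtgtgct
Traf2: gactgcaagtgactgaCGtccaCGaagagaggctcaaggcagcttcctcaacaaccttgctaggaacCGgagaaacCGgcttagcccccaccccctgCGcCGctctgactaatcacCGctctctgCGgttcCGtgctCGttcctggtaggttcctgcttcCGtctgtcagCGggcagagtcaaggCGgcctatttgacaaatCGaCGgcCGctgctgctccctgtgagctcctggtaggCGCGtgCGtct
Rela: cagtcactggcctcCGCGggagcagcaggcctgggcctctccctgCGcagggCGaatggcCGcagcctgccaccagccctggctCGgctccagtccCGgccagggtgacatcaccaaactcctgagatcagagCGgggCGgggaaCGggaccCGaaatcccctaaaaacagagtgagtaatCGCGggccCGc

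Traf1 was, of the 9 matched genes, the one with the fewest CpG in the 250 bases before the start given by RefSeq. It held 4, with a GC content of 48%, where the median of 32851 promoters in the table was 6 CpG and 52.4% GC. Traf2 held 19, Rela held 23 over the same length and Traf3 held 49. The remaining members held 9 (Tnfrsf1a), 12 (Traf5), 12 (Tnfrsf1b), 13 (Traf6) and 22 (Traf4). Not all of these windows are free of annotated exons. The Tnfrsf1a window starts after the annotated start of the gene, and 211 bases of the Traf4 window and 192 of the Rela window lie before the exons. Binding motifs were searched on both strands of these 250 bases. The half-site of nuclear receptors, AGGTCA, was in 0 of the 9 members and in 14% of all promoters. The inverted repeat preferred by FXR, with such a half-site on each strand and 1 base between them, was in 0 of the 9 and in 0.00609% of all promoters. The kappaB consensus was found in 1 member, Traf3, in bases 10 to 1 before the start on the plus strand, and in 3.9% of all promoters. A match is a description of letters, and its absence covers this window alone.

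Traf1 was the lowest of the adaptors and the member with the largest fitted difference. The gene lies at chr2:34941750-34961772 on the minus strand of GRCm38 (ENSMUSG00000026875). Wild-type libraries 3, 4, 5, 6 and 9 had 2.44, 2.62, 2.04, 2.03 and 2.14 CPM, and FXR-/- libraries 8, 9, 10, 11 and 12 had 0.413, 0.897, 0.633, 0.573 and 0.848 CPM. All FXR-/- libraries were below all wild-type libraries, and libraries 9 and 12 were the highest of the FXR-/- group. The means were 2.25 ± 0.262 CPM and 0.673 ± 0.200 CPM (SD, n = 5 each), 3.33-fold lower in FXR-/- with a log2 fold change of -1.73 (SE 0.19). These values rest on 65 to 91 counts per wild-type library and 14 to 33 per FXR-/- library. Counting error alone gives a coefficient of variation of 11.5% in wild type and 19.8% in FXR-/-, and the measured ones were 11.6% and 29.8%. From the lowest log2 fold change upward, Traf1 stood at rank 37 of the 18559 tested genes.

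TRAF2 is the ubiquitin ligase adaptor that carries the signal of both TNF receptors, and TRAF1 binds it. Traf2 had 33.3, 34.2, 40.6, 38.5 and 36.0 CPM in the wild-type libraries and 39.4, 36.9, 36.6, 36.6 and 37.7 CPM in the FXR-/- libraries, in the order of numbers given above. All FXR-/- values lay inside the wild-type range, and the log2 fold change was 0.04 (SE 0.0585). The ratio of Traf2 to Traf1, computed per kilobase of exon, was 22.6 to 34.5 in wild type and 71.0 to 165.2 in FXR-/-. The genotypes did not overlap in this ratio, while its numerator did overlap.

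TRAF3 is an inhibitor of the alternative NF-kB route and an adaptor of interferon signalling. Traf3 had 39.2, 41.4, 43.3, 45.9 and 40.7 CPM in wild type and 54.8, 46.9, 44.2, 44.4 and 44.2 CPM in FXR-/-. FXR-/- library 8 was above all others, and the other 4 FXR-/- libraries lay around the upper wild-type values. The log2 fold change was 0.15 (SE 0.0680).

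TRAF4 is best known from development and from epithelia. Traf4 was the most even of the adaptors in wild type, with 51.2 to 54.1 CPM (median 53.4) in wild type and 48.0 to 53.4 CPM (median 50.6) in FXR-/-, and a log2 fold change of -0.07 (SE 0.0395). TRAF5 is an adaptor of the same family that works with lymphocyte receptors. Traf5 had 4.52 to 6.07 CPM (median 5.05) in wild type and 4.84 to 6.24 CPM (median 5.19) in FXR-/-, with a log2 fold change of 0.05 (SE 0.12). An antisense gene and a microRNA overlap 4.49% and 1.42% of its exon bases, each with at most 5 counts in any library, and whether the counting used strand is not given in the sources used here. TRAF6 is the adaptor of Toll-like and interleukin-1 receptors. Traf6 had 47.2 to 52.6 CPM (median 48.8) in wild type and 40.5 to 51.4 CPM (median 45.3) in FXR-/-, with a log2 fold change of -0.11 (SE 0.0606). In all 3 of these genes the genotypes overlapped.

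The TNF receptors differed from each other in level. Whether they differed from each other in their change with genotype was not tested. Tnfrsf1a encodes TNFR1, which carries a death domain and is found on most cells. The gene is at chr6:125349362-125362484 (plus strand). It had 97.9, 100.8, 93.9, 91.7 and 93.2 CPM in wild type and 72.1, 79.2, 87.7, 76.7 and 73.7 CPM in FXR-/-. All FXR-/- libraries were below all wild-type libraries, with library 10 the nearest. The means were 95.5 ± 3.76 and 77.9 ± 6.12 CPM (SD, n = 5 each), 1.23-fold lower with a log2 fold change of -0.29 (SE 0.0545). Tnfrsf1b encodes TNFR2, which has no death domain, binds TRAF2 directly and is typical of leukocytes and endothelium. It had 5.90, 4.17, 5.61, 5.62 and 5.63 CPM in wild type and 5.83, 6.28, 5.87, 5.31 and 4.50 CPM in FXR-/-. The genotypes overlapped over most of their range, wild-type library 4 was the lowest of all, and the log2 fold change was 0.04 (SE 0.12). Tnfrsf1a exceeded Tnfrsf1b per kilobase of exon by 26.6 ± 5.03 times in wild type and 20.9 ± 2.47 times in FXR-/- (SD, n = 5 each), with overlapping ranges. Wild-type library 4 had a ratio of 35.6, and wild-type libraries 3, 5, 6 and 9 had 24.4, 24.7, 24.0 and 24.4. The FXR-/- libraries had 18.2 to 24.2.

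Of the NF-kB subunits, Rela encodes p65, which carries the activation domain. The gene is at chr19:5637483-5648130 (plus strand). Rela had 91.5, 96.4, 93.5, 94.2 and 86.7 CPM in wild type and 77.1, 81.1, 82.5, 78.7 and 79.2 CPM in FXR-/-. The genotypes did not overlap, and wild-type library 9 came closest to the FXR-/- values. The means were 92.5 ± 3.67 and 79.7 ± 2.11 CPM (SD, n = 5 each), 1.16-fold lower with a log2 fold change of -0.21 (SE 0.0390). Nfkb1 encodes p105, from which p50, a DNA-binding subunit with no activation domain, is made. It had 67.8, 60.2, 59.1, 56.7 and 56.5 CPM in wild type and 59.6, 54.9, 55.5, 49.4 and 49.1 CPM in FXR-/-. Here FXR-/- library 8 reached the wild-type range, the other 4 were below it, and the log2 fold change was -0.16 (SE 0.0663). The ratio of Rela to Nfkb1 per kilobase was 6.07 ± 0.464 in wild type and 5.86 ± 0.501 in FXR-/- (SD, n = 5 each), with overlapping ranges.

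**Figure D1:**
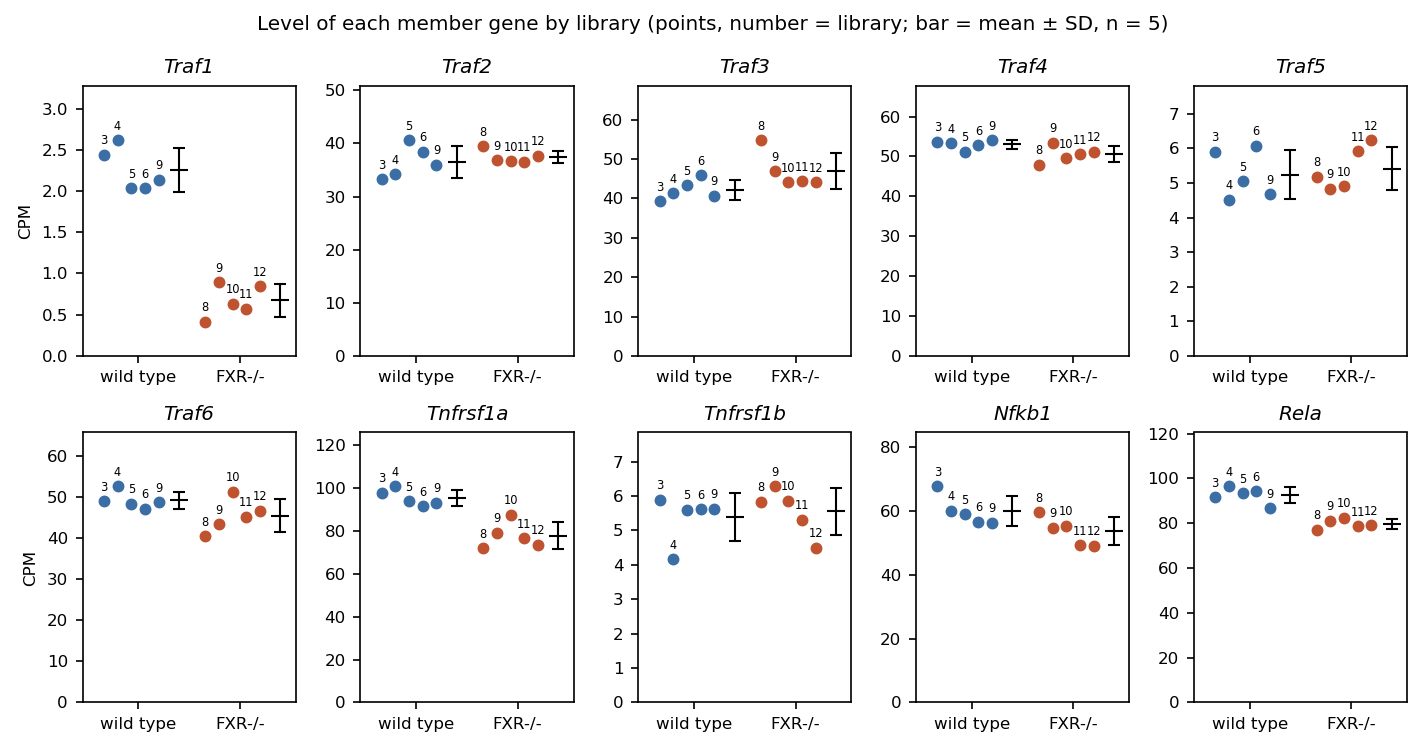
Level of the 10 genes in each library in CPM on linear axes from 0, with points numbered by library, wild type in blue, FXR-/- in orange, and the bar beside each group showing mean and SD (n = 5). In Traf1, Tnfrsf1a and Rela all FXR-/- points lie below all wild-type points, and in the other 7 genes the genotypes overlap.

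The other genes lie on GRCm38 at chr2:25517982-25546940 (Traf2), chr12:111166370-111267153 (Traf3), chr11:78158499-78165589 (Traf4), chr1:191997205-192092559 (Traf5), chr2:101678429-101701669 (Traf6), chr4:145213463-145246870 (Tnfrsf1b) and chr3:135584655-135691547 (Nfkb1). Traf1, Traf2 and Traf6 thus share chromosome 2, and the starts of Traf1 and Traf2 are on its minus strand.

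All 10 genes passed the filter on low counts. The edgeR call held for 3 of them, Traf1, Tnfrsf1a and Rela, all lower, where 13.9% of all tested genes were called in either direction, 7.71% were called lower and 6.17% were called higher. The same 3 were the members whose genotypes did not overlap, which was so for 11.6% of all tested genes. Since the members were selected on this comparison, these calls and shares are given for scale and nothing is read from them. At an unadjusted p under 0.05 there were 5, of which Traf3 was the 1 above wild type. The share of all tested genes at that looser threshold is not given here, so nothing is read from this count. The fitted value was below 0 for 6 members and above 0 for 4, the median was -0.09, and the 7 members that were not called ran from -0.16 to 0.15. Over 17 alternative analyses of the same libraries, the log2 fold changes of Traf1, Tnfrsf1a and Rela ran from -1.87 to -1.61, from -0.37 to -0.26 and from -0.24 to -0.18. The alternatives include leaving out FXR-/- libraries 9 and 10, which had the highest fat cell marker sums (1091 and 649.2 CPM). The part that the fat cell and duct epithelium markers have in the values of the members was not tested.

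To compare the genes with each other, CPM was divided by the kilobases of merged exon. That length joins the exons of all annotated isoforms and was not matched to the transcripts present in these testes. Orders, ratios and shares between genes depend on it. In wild type the level was 36.9 ± 1.45 CPM per kilobase for Tnfrsf1a, 30.1 ± 1.20 for Rela and 16.1 ± 0.341 for Traf4 (SD, n = 5 each). A middle group followed, with 7.16 ± 0.599 for Traf2, 6.24 ± 0.257 for Traf6, 5.73 ± 0.353 for Traf3 and 4.98 ± 0.381 for Nfkb1 (SD, n = 5 each). Tnfrsf1b had 1.41 ± 0.181, Traf5 had 1.15 ± 0.155 and Traf1 had 0.256 ± 0.0298 CPM per kilobase (SD, n = 5 each). The wild-type ranges of neighbours in this order overlapped between Traf2 and Traf6, Traf6 and Traf3, Traf3 and Nfkb1, and Tnfrsf1b and Traf5. Of these pairs, the higher gene was above the other in 4 of 5 libraries for Traf6 over Traf3 and for Traf3 over Nfkb1, and in 5 of 5 for the remaining pairs. In FXR-/- the order was the same except that Traf3 stood above Traf6 in 4 of 5 libraries, and Traf1 was again the lowest, at 0.0763 ± 0.0227 CPM per kilobase (SD, n = 5).

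**Figure D2:**
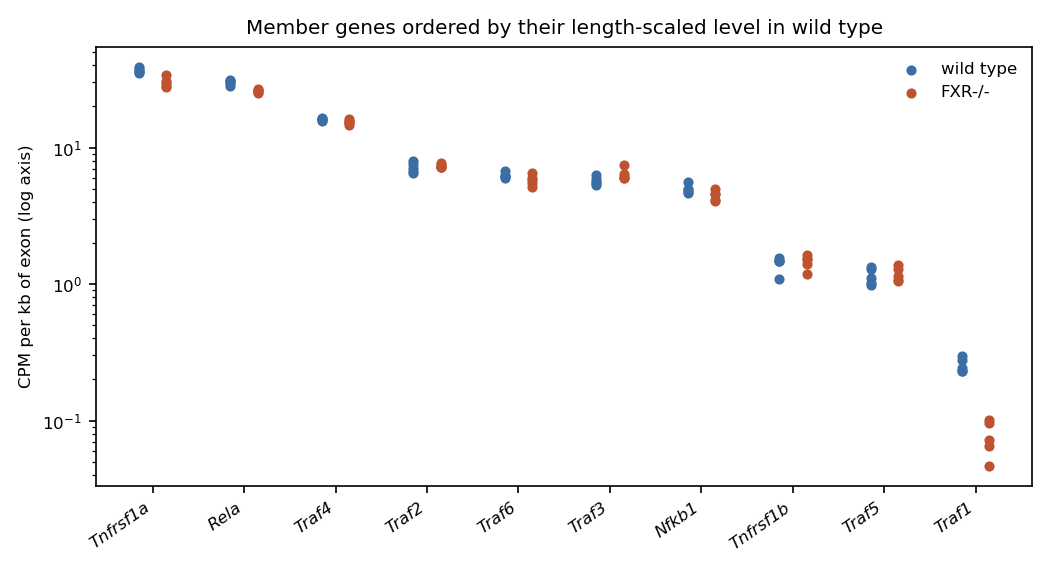
Level per kilobase of merged exon (CPM per kb, log axis) of the 10 genes in both genotypes, with points for libraries, ordered by the wild-type mean. The levels run from 36.9 for Tnfrsf1a down to 0.256 for Traf1 in wild type, and the FXR-/- points of Traf1 lie below its wild-type points.

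Per kilobase of merged exon, the levels of the 6 adaptors summed to 36.6 ± 0.534 in wild type and 36.1 ± 0.336 in FXR-/- (SD, n = 5 each), with overlapping ranges. Traf4 made up 44.0% of this sum in wild type and 42.5% in FXR-/-. Traf2 had 19.5% and 20.3%, Traf6 had 17.0% and 16.0%, Traf3 had 15.6% and 17.7%, and Traf5 had 3.13% and 3.29%. Traf1 made up 0.698 ± 0.0884% in wild type and 0.211 ± 0.0613% in FXR-/- (SD, n = 5 each), without overlap. By this measure, the 3.33-fold difference in Traf1 was a difference in under 1% of the adaptor sum. The share would be larger if the Traf1 transcript present is shorter than its merged exons.

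The other genes of the pathway were read from 7 lists of textbook members, 145 genes in all without the 10 above, of which 144 were in the table and 123 were tested. By edgeR, 9 rose and 5 fell, 11.4% of those tested against 13.9% of all tested genes. The genotypes did not overlap in 10 of the 123 (8.13%), against 11.6% of all tested genes. The median log2 fold change was 0.02, beside 0.01 for all tested genes.

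Among 9 relatives and partners of the TRAF proteins, 2 rose, 0 fell, and the median was 0.06. Traip, a ubiquitin ligase named for binding TRAF proteins and known for its role in DNA repair, rose from 29.2 ± 2.65 to 37.0 ± 2.76 CPM (SD, n = 5 each), with a log2 fold change of 0.34 (SE 0.0713, adjusted p = 0.00966). Tdp2, a DNA repair phosphodiesterase also known as a TRAF-interacting protein, rose from 76.9 ± 2.12 to 87.7 ± 3.28 CPM (SD, n = 5 each), with 0.19 (SE 0.0387, adjusted p = 0.00854). Neither gene's genotypes overlapped.

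Of 18 ligands of the TNF family, 8 were abundant enough to be tested, 3 rose and 1 fell, and the median was 0.08. Tnf, named after its values were seen, was not tested, with 2 to 9 counts per wild-type library and 3 to 13 per FXR-/- library. Lta and Ltb encode lymphotoxins alpha and beta, which form the ligand of the lymphotoxin beta receptor. Lta had 0.331, 0.144, 0.094, 0.0598 and 0.151 CPM in wild type and 0.236, 0.761, 1.24, 1.17 and 1.57 CPM in FXR-/-, which is 2 to 11 and 8 to 61 counts. FXR-/- library 8 lay within the wild-type range and the other 4 above it, with a log2 fold change of 2.66 (SE 0.50, adjusted p = 0.00631). Library 8 was the lowest of its group in Ltb as well. Ltb had 0.865 ± 0.200 CPM in wild type and 2.37 ± 1.03 CPM in FXR-/- (SD, n = 5 each), with 0.796 CPM in that library, and a log2 fold change of 1.46 (SE 0.33, adjusted p = 0.0142). Tnfsf10, which encodes the death ligand TRAIL, rose from 2.76 ± 0.439 to 4.27 ± 0.699 CPM (SD, n = 5 each), with 0.63 (SE 0.14, adjusted p = 0.0154). Tnfsf12, which encodes TWEAK, fell from 8.80 ± 0.617 to 6.86 ± 0.678 CPM (SD, n = 5 each), with -0.36 (SE 0.0877, adjusted p = 0.0202). The genotypes did not overlap in Tnfsf10 and Tnfsf12. Tnfsf12 lost its call without FXR-/- library 11 and without FXR-/- libraries 9 and 10 (adjusted p up to 0.0799). Lymphocyte markers, the products of cells in which lymphotoxins are typical, summed to 6.59 to 9.51 CPM in wild type and 6.30 to 9.00 CPM in FXR-/-, with 1 of 10 tested genes lower, and none of the 12 listed was at 0 in a library.

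The TNF receptor family had 1 called gene among 25 tested, with a median of 0.06. Tnfrsf4, which encodes the T cell costimulatory receptor OX40, rose from 1.74 ± 0.271 to 2.57 ± 0.406 CPM without overlap (SD, n = 5 each), with a log2 fold change of 0.56 (SE 0.15, adjusted p = 0.0287). Of 25 genes of the receptor complex and its kinases, 1 rose and 2 fell, with a median of -0.05. Map3k14, the NF-kB-inducing kinase that TRAF3 holds in check, rose from 12.3 ± 0.767 to 14.4 ± 0.728 CPM (SD, n = 5 each), with 0.23 (SE 0.0654, adjusted p = 0.0367). Cflar, the inhibitor of caspase-8 known as cFLIP, fell from 93.5 ± 9.30 to 77.2 ± 7.93 CPM (SD, n = 5 each), with -0.28 (SE 0.0805, adjusted p = 0.0407). Mapk9, the stress kinase JNK2, fell from 268 ± 19.8 to 220.6 ± 27.1 CPM (SD, n = 5 each), with -0.28 (SE 0.0835, adjusted p = 0.044). Map3k14 and Cflar overlapped between genotypes and Mapk9 did not. Each of these 4 genes lost its call in 6 to 10 of the 17 alternatives, with adjusted p up to 0.0976. Of single libraries left out, wild-type 4 and 9 and FXR-/- 12 each ended all 4 calls, FXR-/- 11 ended those of Tnfrsf4, Cflar and Mapk9, wild-type 3 and 5 and FXR-/- 9 those of Map3k14, Cflar and Mapk9, FXR-/- 8 those of Map3k14 and Cflar, wild-type 6 that of Tnfrsf4 and FXR-/- 10 that of Map3k14.

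In the Toll-like and interleukin-1 receptor arm, which signals through TRAF6, 1 of 21 tested genes rose and 0 fell, with a median of -0.02. It was Ikbke, a kinase of the interferon response, which rose from 8.19 ± 1.78 to 12.2 ± 2.44 CPM (SD, n = 5 each), with a log2 fold change of 0.57 (SE 0.165, adjusted p = 0.0387). Its genotypes overlapped, and it lost its call in 8 of the 17 alternatives (adjusted p up to 0.0939), among them those without wild-type library 4, 5, 6 or 9 or FXR-/- library 10, 11 or 12. Macrophage and leukocyte markers summed to 143.5 to 158.9 CPM in wild type and 125.1 to 179.7 CPM in FXR-/-. By edgeR 0 of these 13 genes were called, 4 had an unadjusted p under 0.05, and DESeq2 called 2 and limma-voom 0. No share of all genes is given at the unadjusted threshold.

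Among 19 kinases, subunits and inhibitors of the NF-kB core, edgeR called 0, with a median log2 fold change of 0.00. At an unadjusted p under 0.05, where no share of all genes is given, there were 3, and DESeq2 called 2 and limma-voom 0. The most abundant were the inhibitor-of-kappaB kinases Chuk, with 146.7 ± 17.0 and 159.9 ± 17.5 CPM and a log2 fold change of 0.12 (SE 0.0907), and Ikbkb, with 84.1 ± 3.31 and 82.2 ± 3.84 CPM and -0.03 (SE 0.0440). Of 20 tested NF-kB target genes, 1 rose and 2 fell, and the median was -0.05. Vcam1, an adhesion molecule for leukocytes, fell from 89.0 ± 12.0 to 63.8 ± 5.17 CPM (SD, n = 5 each), with -0.48 (SE 0.0891, adjusted p = 0.00574). Bcl2l1, which encodes the survival protein Bcl-xL, fell from 73.4 ± 2.86 to 65.3 ± 2.33 CPM (SD, n = 5 each), with -0.17 (SE 0.0411, adjusted p = 0.0207). Cd83, a marker of activated antigen-presenting cells, rose from 1.69 ± 0.171 to 2.36 ± 0.416 CPM (SD, n = 5 each), with 0.48 (SE 0.15, adjusted p = 0.0491), and lost its call in 13 of the 17 alternatives (adjusted p up to 0.186), among them leaving out any single library except FXR-/- 12. Bcl2l1 lost its call without FXR-/- library 11 and with library totals (adjusted p up to 0.0599). The genotypes overlapped in Cd83 and not in Vcam1 or Bcl2l1. The part that the fat cell and duct epithelium markers given above have in any of these pathway values was not tested.

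**Figure D3:**
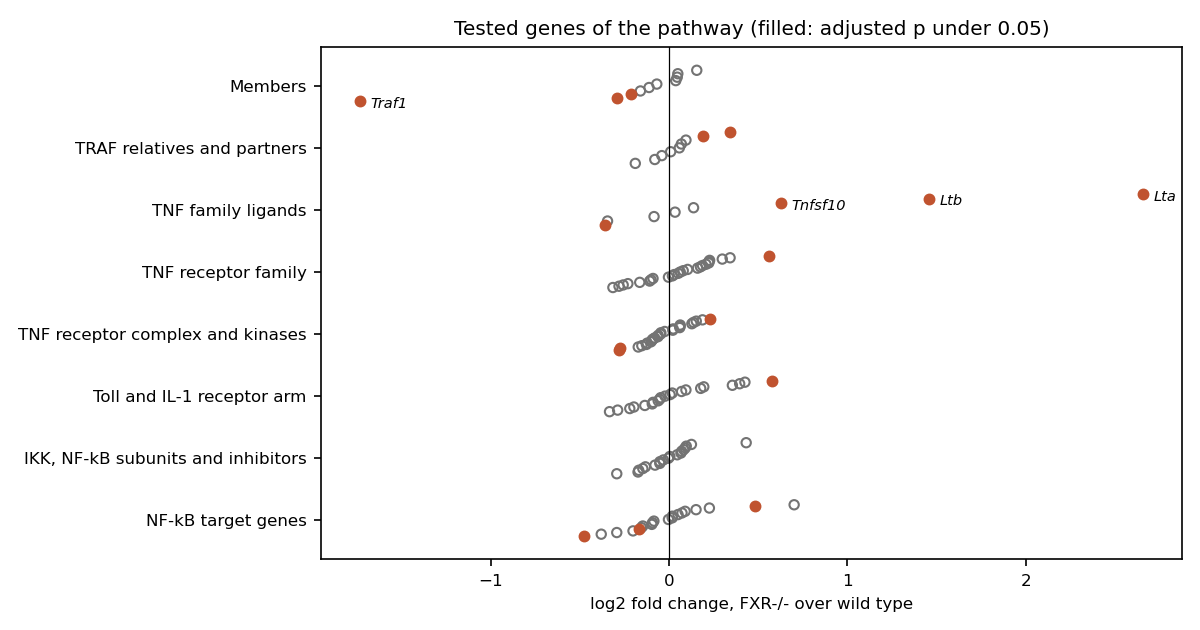
Fitted log2 fold change (FXR-/- over wild type) of each tested gene in the 7 pathway lists and of the 10 members, with called genes filled and 1 row of points per list (the vertical line marks 0). The list medians lie between -0.05 and 0.08, close to the 0.01 of all tested genes, and Lta (2.66), Ltb (1.46) and Traf1 (-1.73) lie farthest from 0.

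The neighbourhood of Traf1 on chromosome 2 was examined because it was the member with the largest fitted difference. Within 1 Mb of its start on either side the annotation holds 34 genes in the table, of which 20 were tested. By edgeR, 3 of the 20 fell and 0 rose, so 15% were called. Of all tested genes, 13.9% were called in either direction and 7.71% were called lower. The median log2 fold change of the 20 was 0.01. Stom, which encodes the membrane protein stomatin and starts 375.2 kb toward higher coordinates, fell from 66.0 ± 2.71 to 25.9 ± 9.15 CPM (SD, n = 5 each), with -1.35 (SE 0.19, adjusted p = 0.00104). Hc, which encodes complement component C5 and starts 99.7 kb toward higher coordinates as the nearest tested gene there, fell from 1.13 ± 0.114 to 0.689 ± 0.133 CPM (SD, n = 5 each), with -0.72 (SE 0.16, adjusted p = 0.0143). Mapkap1, which encodes a subunit of the kinase complex mTORC2 and starts 555 kb toward lower coordinates, fell from 71.4 ± 4.76 to 62.4 ± 1.20 CPM (SD, n = 5 each), with -0.20 (SE 0.0481, adjusted p = 0.0212), and lost its call in 5 of the 17 alternatives, among them those without wild-type library 4 or 5 or FXR-/- library 11 (adjusted p up to 0.0631). In Stom and Hc the genotypes did not overlap. In Mapkap1 they were only just apart, with a wild-type minimum of 63.275 CPM and an FXR-/- maximum of 63.272 CPM. Scaled by library totals alone, the genotypes overlapped in Mapkap1. Phf19, a Polycomb-associated gene and the nearest tested one toward lower coordinates at 47.7 kb, had 7.55 CPM in wild type and 6.31 CPM in FXR-/- (log2 fold change -0.26, SE 0.0817, adjusted p = 0.054). Of the alternatives, DESeq2 and the fit without wild-type library 5 called it. Cutal, 87.4 kb toward lower coordinates and named after its values were seen, had 0.632 CPM in wild type and 1.09 CPM in FXR-/- (log2 fold change 0.78, SE 0.25, adjusted p = 0.0597).

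**Figure D4:**
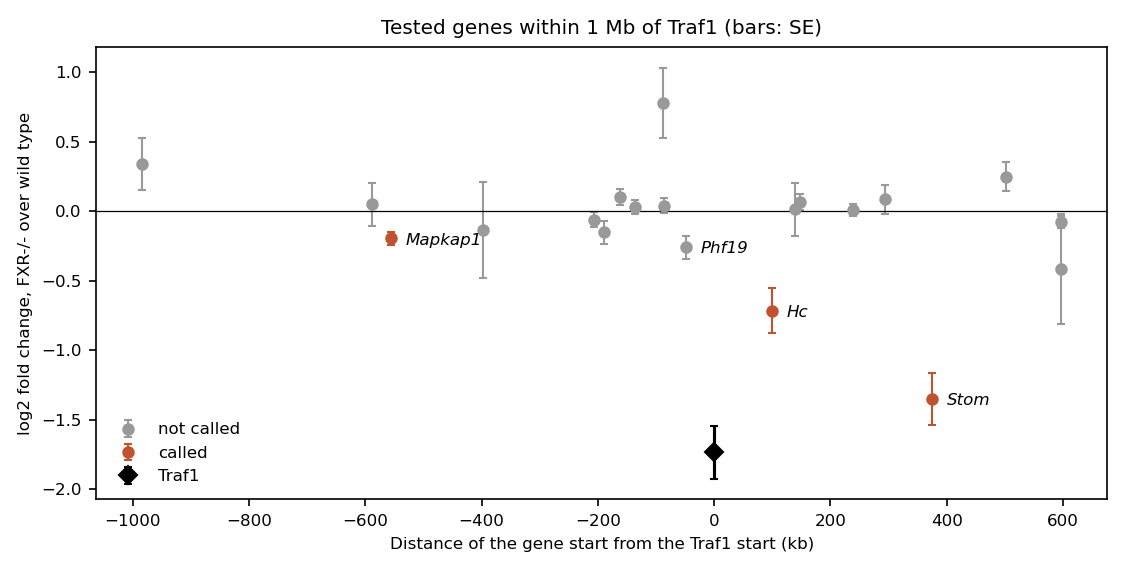
Fitted log2 fold change (FXR-/- over wild type, error bars 1 SE) of the tested genes within 1 Mb of Traf1, against the distance of their start from that of Traf1 in kb. Traf1 at -1.73 and Stom at -1.35 stand below genes whose median is 0.01, and Hc and Mapkap1 are the other called genes.

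The values of these genes were compared across the FXR-/- libraries. In percent of the wild-type mean, Traf1 had 18.3, 39.8, 28.1, 25.4 and 37.6 in libraries 8, 9, 10, 11 and 12. Stom had 28.5, 53.6, 30.7, 28.2 and 55.1 in the same libraries. Libraries 9 and 12 were thus the highest FXR-/- libraries in both genes, and in Stom they stood 22.9 percentage points above the next one. Hc had 62.4, 64.7, 42.4, 59.7 and 74.7, with 12 and 9 highest, though by 2.36 points. These Hc values rest on 19 to 33 counts per library, with 27 in library 9 and 24 in library 8, too few to order these libraries. Mapkap1 had 84.4 to 88.6 and showed no such order. This pattern was noticed after the values were seen. Libraries 9 and 12 were also the highest FXR-/- libraries in Zdhhc9 (chromosome X), Unc13a (chromosome 8) and Lair1 (chromosome 7). These are named below among the genes most like Traf1 and were picked for that likeness. Mgat4b and Calhm2, named with them, had libraries 9 and 10 highest. The order is thus not particular to this region. The background is mixed, and which parental strain each mouse carries at this locus is not given in the labels. The cause of the order was not tested.

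**Figure D5:**
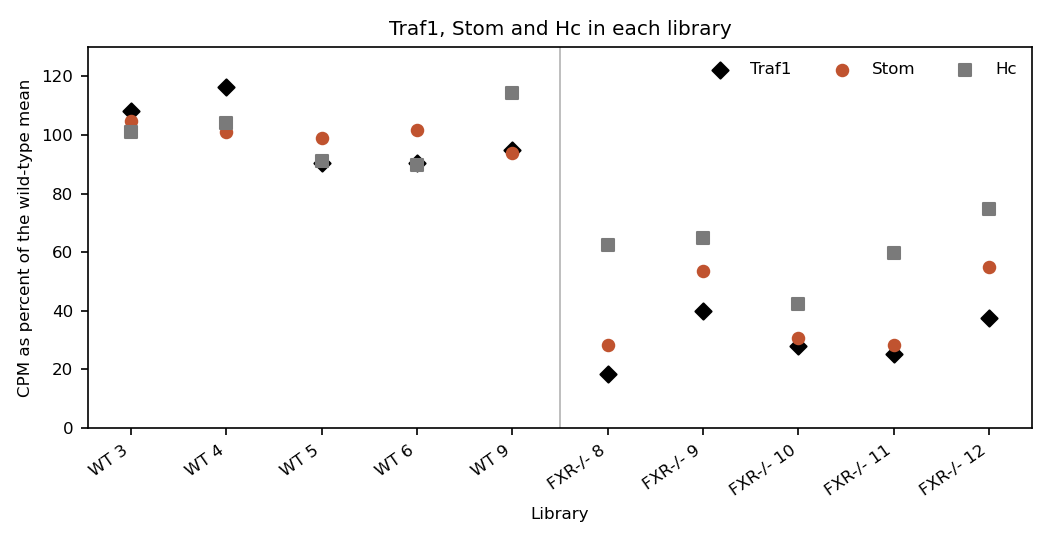
Level of Traf1, Stom and Hc in each library as a percent of the wild-type mean of the same gene (linear axis from 0). FXR-/- libraries 9 and 12 are the highest of their group in Traf1 (39.8 and 37.6), Stom (53.6 and 55.1) and Hc (64.7 and 74.7). The FXR-/- values of Hc rest on 19 to 33 counts per library.

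The genes with the pattern most like Traf1 over the 10 libraries, by Pearson r of log2 CPM, were Zdhhc9 (0.990), Unc13a (0.982), Mgat4b (0.981), Lair1 (0.979) and Calhm2 (0.977). All 5 fell by edgeR, with log2 fold changes of -0.24, -0.99, -0.66, -1.97 and -0.48. These r values hold the difference between the genotypes, which both genes of each pair share. After each genotype's mean was subtracted, the most similar were Slc15a5 (0.941), Zdhhc9 (0.929), Il13ra2 (0.923), Dlgap4 (0.919) and Klhl41 (0.908), of which Slc15a5, Il13ra2 and Klhl41 had at most 33 counts in any library. Among the members, Rela (0.925), Tnfrsf1a (0.892) and Traf4 (0.814) were most like Traf1 over all libraries. Traf3 ran opposite to Traf1 there (-0.731). With the genotype means subtracted, Traf4 kept 0.827, while Traf6 had 0.442, Rela had 0.397 and Tnfrsf1a had 0.363. The remaining members were below 0, with Traf3 at -0.645, Traf2 at -0.481, Tnfrsf1b at -0.309, Nfkb1 at -0.216 and Traf5 at -0.0302. All points share libraries and depth, and the values are given as a description.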

How the data were processed

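RNA of whole testes was sequenced from 5 wild-type and 5 FXR-/- mice. Per the labels' protocols, Trizol extracts of frozen testes went into an Illumina TruSeq RNA kit. Per the submitters' processing notes, FastQC 0.10.1, CASAVA, Bowtie, TopHat2 2.0.10, Bowtie2 2.1.0 and the build mm10 are listed without their roles or order. For the counter, the annotation, strandedness and multiply aligned reads, the choice is not given in the sources used here. Raw gene counts made by the authors were used as deposited. Normalized values in the same table had lost their decimal marks and were not used.

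After filterByExpr and TMM scaling, genotype was tested in edgeR 4.0.16 (R 4.3.3) by a two-sided quasi-likelihood test. P-values of the 18559 genes were adjusted by Benjamini-Hochberg, and genes were called under an adjusted p of 0.05. The SE of a log2 fold change is its size divided by the square root of F. CPM are counts over effective library size, with depth from 32330029 to 39655170 counts. P-values set the difference between the genotypes against the variation left between mice of the same genotype. Positions and merged exon lengths came from GENCODE M21 on GRCm38, which matched 30212 of 30719 genes by identifier. The 12 lists held 208 entries, of which 207 were in the table. Named genes were the members, up to 4 called genes per pathway list by smallest p or else its 2 most abundant tested ones, the called and nearest tested genes within 1 Mb of Traf1, and the 5 genes most like it (log2 CPM, prior count 2). The members and lists were chosen with earlier results of these data known. Alternatives were DESeq2 1.42.0, limma 3.58.1 (voom), other scalings, no filter and libraries left out. The edgeR step was tested on simulated data with the same dispersion for all genes. Planted changes as small as that of Rela and levels as low as that of Lta were not covered.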

Additional observations from a re-analysis of the deposited data

Results flagged for a closer look

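In 26 genes the spread of each genotype was examined with Dixon's ratio, the gap of the highest or lowest library to the nearest one over the group's range, against its critical value of 0.71 for 5 libraries. Of 52 groups, 5 exceeded it, where chance alone gives about 1 in 20. FXR-/- library 8 stood apart in Traf3, with 54.8 CPM against 44.2 to 46.9 in the other 4, and in Mapk9, with 173.7 CPM against 224.4 to 241.1. Wild-type library 4 had the low value of Tnfrsf1b, 4.17 CPM against 5.61 to 5.90. Wild-type library 9 had 0.512 CPM of Ltb against 0.903 to 0.987, and FXR-/- library 12 had 1.64 CPM of Cd83 against 2.34 to 2.61.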

How the results depend on the processing

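Of the 14 called pathway genes, 6 (Tdp2, Traip, Lta, Ltb, Tnfsf10 and Vcam1) lost no call under the 17 alternatives. Of the members, the fitted sign of Traf5 changed in 2 and that of Tnfrsf1b in 3. Leaving out 1 library, called genes ranged from 1427 to 2867 (651 to 1194 higher, 776 to 1673 lower), and called pathway genes from 7 to 20 (5 to 9 higher, 1 to 12 lower). The lowest totals and counts of lower genes were without FXR-/- library 11, as was the lowest count of all genes called higher, while the 5 pathway genes called higher were without wild-type library 4 or 9. In all, 1601 and 1635 genes (8 and 9 pathway genes) were called without wild-type library 4 and FXR-/- library 12. Without wild-type library 9, 9 pathway genes were called. DESeq2 called 3485 genes and 22 pathway genes (12 higher, 10 lower). Of pathway genes, 3 were called lower with upper-quartile factors, 2 with library totals and 11 without FXR-/- libraries 9 and 10, whose fat cell markers were the highest. The share of called genes that were higher was 44.5%, and 53.0% with upper-quartile factors, 61.5% with library totals and 38.4% without FXR-/- libraries 9 and 10. The cause was not tested. Depth limits Traf1, Lta, Tnf and Hc. No paired analysis was possible because the groups share only 1 number.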
